A study of Mus musculus with 6 samples.

Results

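The nuclear-encoded subunits of oxidative phosphorylation were followed in mouse myocardium that lacked *Clk4* in cardiomyocytes and received virus coding for either form of the actin-binding protein NEXN. Members were chosen by gene symbol alone, as every non-control probe whose symbol begins with Nduf followed by a, b, c, s or v and a number, is Sdha, Sdhb, Sdhc, Sdhd or Cyc1, or begins with Uqcr, Atp5 or Cox4 to Cox8. This rule found 131 probes of 85 gene symbols among the 56605 probes and 27307 symbols of the array. It used no measured value. Besides true subunits it took in 5 symbols that are not subunits of complexes I to V in the strict sense, namely the paralog Ndufa4l2, the supercomplex factor Cox7a2l, the related genes Atp5s and Atp5sl, and the pseudogene Atp5c1-ps.

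Oxidative phosphorylation takes place in the inner mitochondrial membrane. Complexes I and II pass electrons from NADH and succinate to ubiquinone, complex III passes them on to cytochrome c, complex IV reduces oxygen, and complex V, the ATP synthase, uses the proton gradient made on the way to form ATP. Most subunits are encoded in the nucleus and are assembled with a small core encoded by mitochondrial DNA, and heart muscle, which contracts without rest, holds these proteins in great amounts.

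Each group held 3 samples of total RNA from myocardium of male C57BL/6J mice, with 3 animals per group and 1 sample per array. Both groups carried the same deletion. The *Clk4* fl/fl mice bearing the α-MHC-MerCreMer transgene, a tamoxifen-dependent Cre driven by a cardiomyocyte promoter, received tamoxifen at 6 to 8 weeks of age, and AAV9 was injected intravenously at 5 weeks. The control virus (NEXN-WT) carried wild-type *Nexn* and the other (NEXN-S437E) carried a form with a serine replaced by glutamate to mimic phosphorylation, in both cases under a CMV promoter, which is not restricted to heart muscle cells. Every difference below is between these virus groups. P-values measure the spread between these samples.

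The levels below are log2 of the background-corrected fluorescence minus the 75th percentile of the same array, so that a level of 0 is as bright as that percentile. Of the members, 116 probes of 83 genes were tested, being flagged by the scanner as clearly brighter than background in every sample of NEXN-WT or of NEXN-S437E, and 115 of them passed on all 6 arrays, among 22998 tested probes in all. Cox7b2 and Cox8c, isoforms described chiefly in testis, were not well above background on any array. Cardiomyocyte markers fitted the labelled tissue, since all 15 of 15 were tested, with a summed level, on a linear scale relative to the 75th percentile, of 3324 to 4461 in the NEXN-WT samples and 5254 to 5360 in the NEXN-S437E samples. The slide held the arrays in rows, and the row was not balanced over the groups, since NEXN-WT 1, 2 and 3 and NEXN-S437E 1 lay in row 1 and NEXN-S437E 2 and 3 in row 2. The 75th percentile signal itself was 154 to 273 units in NEXN-WT and 110 to 160 in NEXN-S437E.

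Oxidative phosphorylation subunits were higher with NEXN-S437E almost throughout, by modest amounts, and no single probe passed the threshold over all probes. The log2 fold change, NEXN-S437E over NEXN-WT, was positive for 114 of 116 member probes, against 60.8% of all tested probes, and its median was 0.49, against 0.09 for all. By limma, 68 of the 116 were higher at an unadjusted p under 0.05, against 10.5% of all tested probes, and 0 were lower, against 6.7%. After Benjamini-Hochberg adjustment over all 22998 probes, 0 members were under 0.05, where 0.161% of all probes were, and 0 reached a 2-fold change with an unadjusted p under 0.05, where 2.52% did. The 3 values of each group did not overlap for 80 member probes, all higher with NEXN-S437E, against 18.7% of all probes, and for 0 members in the other direction, against 9.17%. Taking the brightest tested probe of each gene, all 83 genes had a positive fold change, against 59.2% of all symbols, from 0.18 to 0.97 with a median of 0.50, that is 1.42-fold, and 55 were higher at an unadjusted p under 0.05, where 10.1% of all symbols were. The standard error of a gene's log2 fold change ran from 0.13 to 0.31.

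The size of this difference depended on the scale. The deposited values are quantile normalised, which gives every array the same distribution of signals, and on them the median log2 fold change of the member probes was 0.21, against 0.02 for all probes, with 107 of 116 positive where 53.2% of all were. On that scale 13 of 116 were higher at an unadjusted p under 0.05, against 7.65% of all probes, and 0 were lower, against 8.12%, while 34 did not overlap and were higher, against 13.3%, and 1 did not overlap and was lower, against 11.7%. After adjustment 0 members were under 0.05 on that scale, where 0.122% of all probes were, and 0 reached 2-fold with an unadjusted p under 0.05, where 2.63% did. By gene, 76 of 83 were positive, where 50.4% of all symbols were, and 9 were higher at an unadjusted p under 0.05, against 7.06%. Over all tested probes the calls at an unadjusted p under 0.05 shifted too, from 2423 higher and 1542 lower to 1760 higher and 1868 lower.

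The members moved together from array to array. Their median level was 6.47, 6.98 and 7.21 in NEXN-WT 1, 2 and 3 and 7.31, 7.48 and 7.43 in NEXN-S437E 1, 2 and 3. All 3 NEXN-S437E medians lay above all 3 of NEXN-WT, the NEXN-WT samples spread far more (SD 0.38, n = 3) than the NEXN-S437E samples (SD 0.09, n = 3), and NEXN-WT 1 stood lowest. On the deposited scale the medians were 14.12, 14.42 and 14.55 in NEXN-WT and 14.50, 14.68 and 14.65 in NEXN-S437E, where NEXN-WT 3 lay above NEXN-S437E 1. NEXN-WT 1 was the lowest of the 6 arrays for 102 of 116 member probes, 87.9%, against 41.4% of all tested probes, and on the deposited scale for 77, 66.4%, against 34.7%. Without NEXN-WT 1 the median fold change of the members was 0.31 with 49 higher at an unadjusted p under 0.05, 42.2%, against 8.01% of all probes in that fit. On the quantile scale without it the median was 0.11 with 7 higher, 6.03%, which is near the 5.81% of all probes. Without NEXN-S437E 2 or 3 the median was 0.46 or 0.49 with 23 or 22 members higher at an unadjusted p under 0.05, against 5.51% or 5.80% of all probes. Row 2 held no NEXN-WT sample, so with the slide row as a block the virus effect rests on NEXN-S437E 1 against the NEXN-WT samples. The median of the members was then 0.43, against 0.11 for all probes, and on the quantile scale 0.10, against 0.03. No count of calls is given for that fit.

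**Figure D1:**
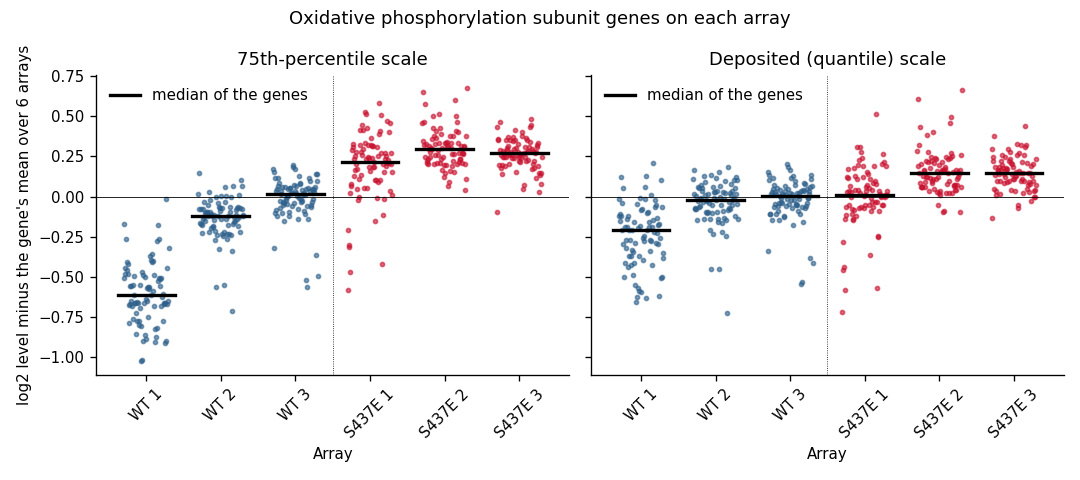
Level of each of the 83 subunit genes on each array, as log2 minus the mean of that gene over the 6 arrays (vertical axis), on the 75th-percentile scale (left) and the deposited scale (right). Each point is 1 gene, blue for NEXN-WT and red for NEXN-S437E, and the black bar is the median, which ran from -0.61 in NEXN-WT 1 to 0.30 in NEXN-S437E 2 on the left and from -0.21 to 0.15 in the same arrays on the right.

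Complex I, where electrons from NADH enter the chain, supplied 35 of the genes, all tested. On the 75th-percentile scale 35 of 35 were positive with a median log2 fold change of 0.50, and 25 (71.4%) were higher at an unadjusted p under 0.05. Deposited values gave 33 positive, a median of 0.22 and 4 (11.4%) at that p. As for each complex below, these counts stand against 59.2% of all symbols positive and 10.1% higher at that p on the first scale, and 50.4% and 7.06% on the second. Ndufa7, an accessory subunit, had levels of 7.11, 7.88 and 8.06 in NEXN-WT and 8.64, 8.51 and 8.54 in NEXN-S437E. Every NEXN-S437E value lay above every NEXN-WT value, with a log2 fold change of 0.88 ± 0.25 (SE, limma, Benjamini-Hochberg adjusted p = 0.173) and 0.53 on the deposited scale. Ndufb9, another accessory subunit, measured 7.46, 7.36 and 7.95 against 8.16, 8.35 and 8.28, again without overlap, a difference of 0.67 ± 0.19.

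The catalytic core of complex I holds the electron path. Ndufs1, which carries several of its iron-sulfur clusters, measured 5.94, 6.35 and 6.47 in NEXN-WT and 6.66, 6.80 and 6.77 in NEXN-S437E. The groups did not overlap on either scale, and the difference was 0.49 ± 0.17 (limma, Benjamini-Hochberg adjusted p = 0.231). Ndufs7 and Ndufs8, which carry further clusters, differed by 0.61 and 0.56. Ndufv2, a subunit of the NADH-binding part, differed by 0.51, and Ndufv1, which holds the flavin, by 0.53, though for Ndufv1 NEXN-S437E 1 at 6.88 fell inside the NEXN-WT range of 6.22 to 6.91. Ndufs3 overlapped in the same manner, with NEXN-S437E 1 at 7.21 just under NEXN-WT 3 at 7.22.

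The smallest differences in complex I were those of Ndufb11, Ndufa8 and Ndufa2. Ndufb11, an X-linked accessory subunit, measured 7.11, 7.64 and 7.79 in NEXN-WT but 7.04, 8.08 and 8.06 in NEXN-S437E, so that NEXN-S437E 1 was the lowest of all and the other two were the highest. Its log2 fold change was 0.21 ± 0.31 on the 75th-percentile scale and -0.09 on the deposited scale. Ndufa2 measured 7.20, 7.61 and 7.84 in NEXN-WT and 7.39, 8.03 and 8.04 in NEXN-S437E, with NEXN-S437E 1 inside the NEXN-WT range, and changed sign likewise, from 0.27 to -0.03. This pattern, in which the row-2 arrays NEXN-S437E 2 and 3 exceeded every row-1 array while NEXN-S437E 1 did not exceed all NEXN-WT samples, held for 14 of 116 member probes, 12.1%, against 7.63% of all tested probes. They were probes of Ndufa2, Ndufb6, Ndufb11, Ndufs3, Ndufs5, Ndufv1, Cyc1, Uqcrb, Cox8b, Atp5c1, Atp5h, Atp5j and Atp5j2. Slide row and virus cannot be told apart in these 2 arrays.

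**Figure D2:**
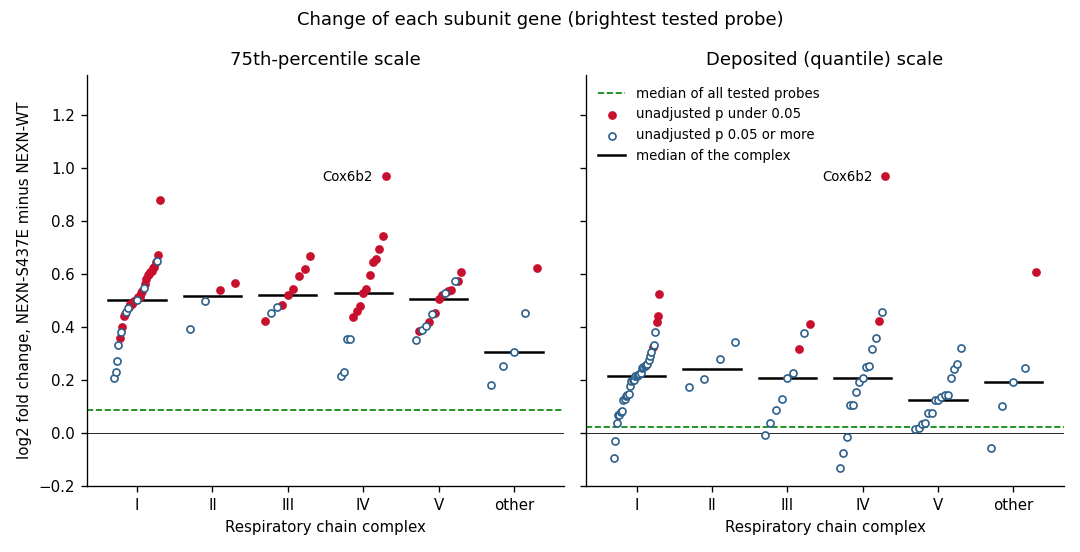
Log2 fold change, NEXN-S437E minus NEXN-WT, of each subunit gene by complex, on the 75th-percentile scale (left) and the deposited scale (right). Each point is the brightest tested probe of a gene, filled red where the unadjusted limma p was under 0.05, with the complex's median as a black bar and the median of all tested probes as a dashed green line, 0.09 on the left and 0.02 on the right. All 83 points lie above 0 on the left and 76 on the right, and Cox6b2 is the highest in both.

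Complex II, succinate dehydrogenase, links the chain to the tricarboxylic acid cycle and is wholly encoded in the nucleus. Its 4 genes had a median difference of 0.52, and 2, Sdhc and Sdhd, were at an unadjusted p under 0.05. These anchor subunits differed by 0.57 ± 0.24 and 0.54 ± 0.22. The flavoprotein Sdha measured 5.33, 5.69 and 5.83 in NEXN-WT and 5.87, 6.05 and 6.12 in NEXN-S437E, without overlap but with NEXN-S437E 1 only just above NEXN-WT 3. Sdhb, the iron-sulfur subunit, measured 6.47, 7.33 and 7.57 against 7.80, 7.54 and 7.53, where the groups overlapped and only NEXN-WT 1 stood clearly lower. On the deposited scale the complex II genes had differences of 0.17 to 0.34, and 0 reached an unadjusted p under 0.05.

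Complex III, the cytochrome bc1 complex, was represented by 9 genes. All 9 were positive with a median of 0.52, and 7 were at an unadjusted p under 0.05. Deposited values gave 8 positive, a median of 0.21 and 2 at that p, Uqcrfs1 and Uqcrb. The Rieske iron-sulfur protein Uqcrfs1 measured 5.35, 5.69 and 5.77 in NEXN-WT and 6.09, 6.25 and 6.31 in NEXN-S437E. The groups did not overlap on either scale, and the difference was 0.62 ± 0.16 (limma, Benjamini-Hochberg adjusted p = 0.159), or 0.41 on the deposited scale. Uqcrc2, a core protein, measured 6.66, 6.68 and 7.36 against 7.55, 7.54 and 7.61, a difference of 0.67 ± 0.21, with NEXN-WT 3 nearer to the other group. Uqcrc1, its partner, differed by 0.54 and Uqcrb, which binds ubiquinone, by 0.59.

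Cyc1, the cytochrome c1 that hands electrons to cytochrome c, measured 6.25, 7.15 and 7.31 in NEXN-WT and 7.30, 7.48 and 7.36 in NEXN-S437E. The groups overlapped by a hair, and the difference of 0.48 ± 0.27 had an unadjusted limma p of 0.115. A second, dimmer Cyc1 probe measured 6.01, 6.24 and 6.50 against 6.61, 7.04 and 6.84, without overlap on either scale, a difference of 0.58 ± 0.19 with an unadjusted limma p of 0.014. Uqcrh, the hinge protein, was 0.48 higher on the 75th-percentile scale and -0.01 on the deposited one, the clearest case in complex III of a bright probe whose difference was tied to the scale.

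Complex IV, cytochrome c oxidase, showed the widest range, from 0.22 to 0.97. Of its 17 genes 15 were tested, all 15 were positive with a median of 0.53, and 11 were at an unadjusted p under 0.05, 73.3% against 10.1% of all symbols. Deposited values gave 12 positive, a median of 0.21 and 2 at that p, Cox6b2 and Cox7c, 13.3% against 7.06%. Cox4i1, the ubiquitous form of subunit 4, measured 8.49, 9.22 and 9.34 in NEXN-WT and 9.70, 9.54 and 9.60 in NEXN-S437E, and the groups were apart on both scales. Its difference was 0.60 ± 0.23 (limma, Benjamini-Hochberg adjusted p = 0.254). Cox7c measured 7.15, 7.64 and 8.02 against 8.24, 8.38 and 8.40, a difference of 0.74 ± 0.22 that was 0.42 on the deposited scale. Cox6c measured 5.89, 5.93 and 5.65 against 6.27, 6.77 and 6.51, and here NEXN-WT 1 was not the lowest sample.

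The largest member difference was that of Cox6b2, an isoform of subunit 6B best known from testis. Its probe (A_51_P300506, mm9 chr7:4703488-4703547) measured -0.49, -1.02 and -0.87 in NEXN-WT and 0.20, 0.19 and 0.13 in NEXN-S437E. All 3 NEXN-S437E values exceeded all NEXN-WT values, and NEXN-WT 1 was the highest of its group, unlike for most members. The log2 fold change was 0.97 ± 0.17, or 1.96-fold (limma, Benjamini-Hochberg adjusted p = 0.0853), and on the deposited scale it was 0.97 as well (adjusted p = 0.118). Without NEXN-WT 1 it was 1.12 with a limma adjusted p of 0.0253. It was the only member probe under 0.05 in that fit, 0.862% of the members against 0.557% of all probes. This probe was among the dimmer members, near the 75th percentile of all spots, whereas the partner isoform Cox6b1 (A_51_P448032, mm9 chr7:31409575-31411071) was 0.46 higher. The first 30 bases of both 60-base probes are shown because the contrast rests on their separate sequences, which share no run longer than 6 bases.
Cox6b2: ggaactttcccgggcaaaatatgaccttgc
Cox6b1: aggagtcaggatggctgaagacatcaagac

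Several complex IV subunits exist in a form typical of heart and skeletal muscle and a form found in most tissues, and 6 isoform pairs were compared within each array. Scaling by a constant cancels there, but a shift that varies with brightness, as described below for the 75th-percentile scale, does not. The mean levels were 9.55 for Cox6a2 and 8.29 for Cox6a1, and -0.23 for Cox4i2 and 9.32 for Cox4i1. The part of brightness in these contrasts was not tested. The muscle form Cox6a2 stood higher relative to the general form Cox6a1 with NEXN-S437E. The log2 difference Cox6a2 minus Cox6a1 was 0.79, 1.29 and 1.07 in NEXN-WT and 1.48, 1.44 and 1.504 in NEXN-S437E, so that every NEXN-S437E array lay above every NEXN-WT array. The shift was 0.43 (two-sided exact permutation p = 0.1, the smallest that 3 against 3 allows) and 0.32 without overlap on the deposited scale. Cox6a2 itself was 0.66 ± 0.23 higher, while Cox6a1 was 0.23 ± 0.17 higher on the 75th-percentile scale and -0.13 on the deposited one, where its NEXN-S437E values were all below those of NEXN-WT. The probes lie at mm9 chr7:135349160-135349219 and chr5:115795726-115795785, and share no run above 4 bases, as their first 30 bases show.
Cox6a2: agcaatcttcaaattggccttctgcacacc
Cox6a1: ggaccacgaaaaccctttggatgctaagct

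For the other muscle isoforms the groups overlapped. Cox7a1 minus Cox7a2 shifted by 0.16 (exact permutation p = 0.5) and Cox8b minus Cox8a by 0.14 (exact permutation p = 0.6), with overlap in both, and on the deposited scale by 0.048 and 0.061. Cox7a1 on its own measured 9.14, 9.98 and 10.05 in NEXN-WT and 10.63, 10.20 and 10.28 in NEXN-S437E, a difference of 0.64 ± 0.26. Cox6b2 minus Cox6b1 shifted by 0.51 (exact permutation p = 0.3), with overlap on the 75th-percentile scale through NEXN-WT 1 and none on the deposited scale. Cox4i2, a form linked to low oxygen and to lung, shifted against Cox4i1 by -0.24 (exact permutation p = 0.1) but by 0.11 on the deposited scale, so its direction was not settled. Ndufa4l2, a hypoxia-related paralog, shifted against Ndufa4, a subunit of complex IV, by -0.36 (exact permutation p = 0.3), and by -0.15 on the deposited scale. Over these 6 tests no adjusted value could pass 0.05, since 0.1 is the smallest p a single one can give.

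**Figure D3:**
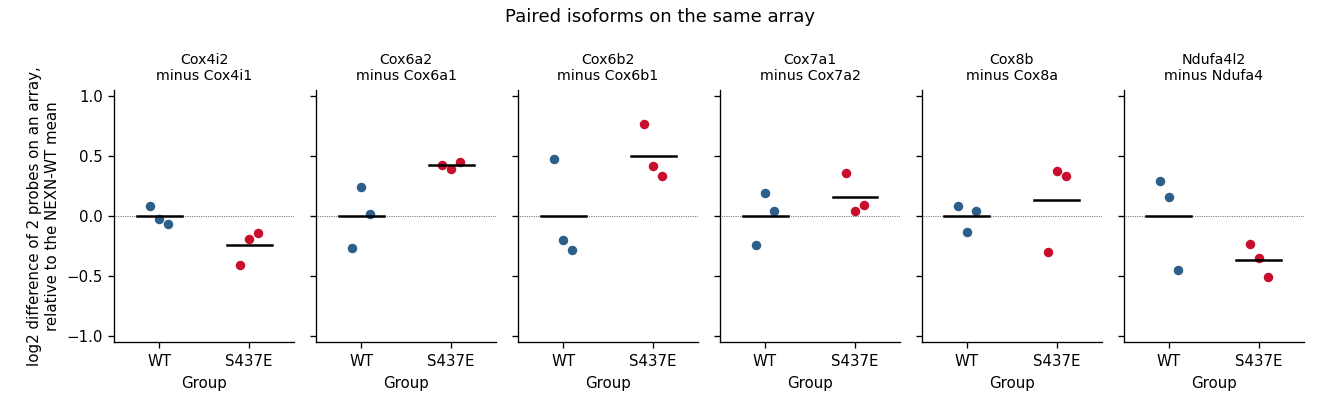
Log2 difference of 2 isoform probes on the same array, set relative to the NEXN-WT mean, for 6 pairs. Each point is 1 array, blue for NEXN-WT and red for NEXN-S437E, and the bar is the group mean; Cox6a2 minus Cox6a1 is shifted up by 0.43 and Cox4i2 minus Cox4i1 down by 0.24 without overlap, and the other 4 pairs overlap.

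Complex V, the ATP synthase, had 15 of 15 genes between 0.35 and 0.61, a median of 0.51, and 9 at an unadjusted p under 0.05. Of the 5 complexes it shrank most on the deposited scale, to a median of 0.13 with 15 positive and 0 at that p. Atp5a1, the alpha subunit of the catalytic head, measured 8.23, 8.78 and 8.79 in NEXN-WT and 9.11, 9.09 and 9.13 in NEXN-S437E. The NEXN-S437E samples were close to each other and above all NEXN-WT samples, a difference of 0.51 ± 0.18 (limma, Benjamini-Hochberg adjusted p = 0.237) that was 0.08 on the deposited scale. Atp5b, the catalytic beta subunit, measured 7.10, 7.70 and 7.88 against 8.01, 7.997 and 8.005, a difference of 0.45 ± 0.21. Atp5c1, the gamma subunit of the rotor shaft, differed by 0.40 with overlap, and Atp5d, the delta subunit, by 0.57. The genes Atp5g1, Atp5g2 and Atp5g3 all code for the c subunit of the membrane ring and differed by 0.61, 0.53 and 0.52.

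Core and accessory subunits were also counted apart, and the difference between them was not tested. Core here means the list of core subunits in the naming rule, and every other subunit was counted as accessory. That list took in Cox4i1 and Cox5a, although the core of complex IV is encoded by mitochondrial DNA. It left out the c subunit genes Atp5g1, Atp5g2 and Atp5g3, so the split is one of lists and not strictly of function. The 21 core genes had a median of 0.53 with 14 (66.7%) at an unadjusted p under 0.05, and the 57 tested accessory genes a median of 0.50 with 40 (70.2%), against 10.1% of all symbols. On the deposited scale the medians were 0.25 and 0.15, with 21 of 21 and 51 of 57 positive, and 1 (4.76%) and 7 (12.3%) genes were higher at an unadjusted p under 0.05, against 7.06% of all symbols. Among the 5 genes outside the complexes the median was 0.31, and 1 reached an unadjusted p under 0.05, Atp5s, whose dim probe measured -2.34, -2.13 and -2.51 against -2.004, -1.34 and -1.77. The supercomplex factor Cox7a2l differed by 0.25 and by -0.06 on the deposited scale. The pseudogene Atp5c1-ps differed by 0.45, and whether its probe also detects the parent transcript was not tested.

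For 27 genes more than 1 probe was tested, and their fold changes had a median spread of 0.10 between the highest and the lowest probe of a gene. In 7 genes the spread exceeded 0.3, and in 2, Ndufb8 and Atp5g1, the probes differed in sign. The bright Ndufb8 probe (A_55_P2497279, mm9 chr19:44624744-44624803) measured 7.02, 7.59 and 7.65 in NEXN-WT and 7.80, 8.07 and 8.003 in NEXN-S437E, a difference of 0.54. Its other probe (A_52_P252539, mm9 chr19:44623218-44623277) measured only -1.74, -1.97 and -1.49 against -2.37, -1.87 and -1.75, with overlapping groups and a difference of -0.26 ± 0.21. For Atp5g1 the bright probe (A_51_P183292, mm9 chr11:95934924-95934983) gave 0.61 and the dimmer one (A_55_P1956064, mm9 chr11:95930317-95930376) gave -0.10 ± 0.22. These were the only member probes with a negative value, and they are shown so that each can be placed; what they detect was not tested.
Ndufb8, bright: ttgatgggctttttgccctcgttcctagag
Ndufb8, dim: ccgtggaataacggacaaagtagccacatt
Atp5g1, bright: ccgacgggaattccagaccagtgtcatttc
Atp5g1, dim: tttcaattattaaaagctttaagggctggc

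Most subunits were among the brightest probes of the array, and brightness moved with the fold change on the 75th-percentile scale. Of the member probes, 81 had a mean level above 6, and their median log2 fold change was 0.51 with 67.9% higher at an unadjusted p under 0.05. The 813 other probes above that level had a median of 0.30 with 22.8%, against 0.03 to 0.06 for probes with a mean level between -2 and 2. On the deposited scale the medians of the other probes ran only from -0.01 to 0.04 over all levels, and there the bright members had a median of 0.19 and the bright other probes one of 0.01, with 6.17% and 3.20% higher at an unadjusted p under 0.05. Within that class the members were brighter than the other probes, so it was divided at a level of 8. Between 6 and 8 the median of the 53 members exceeded that of the other probes by 0.22 on the 75th-percentile scale and 0.20 on the deposited scale, and above 8 that of the 28 members by 0.15 and 0.12. No test was made of these medians, and the part of brightness in the difference was not tested.

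**Figure D4:**
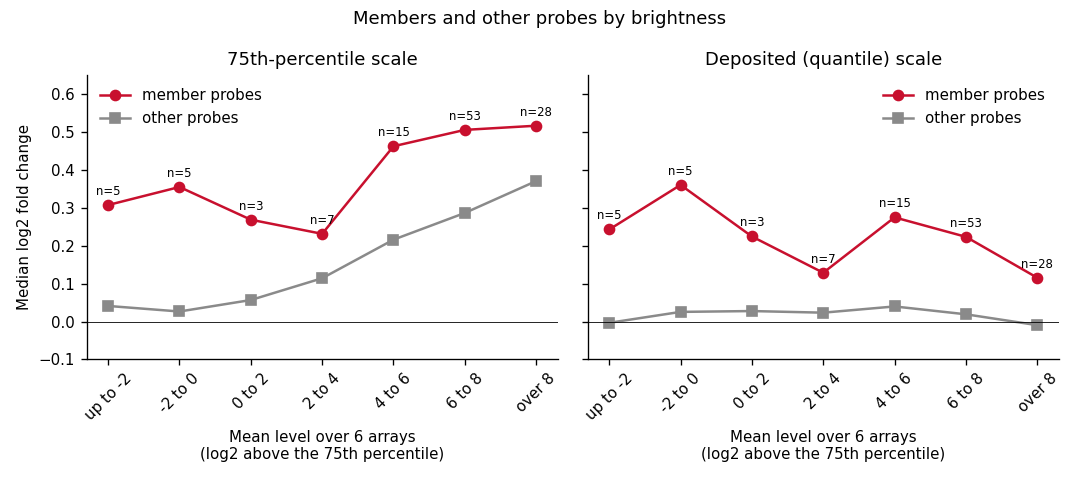
Median log2 fold change, NEXN-S437E minus NEXN-WT, of member probes (red) and all other tested probes (grey) in 7 classes of mean level, on the 75th-percentile scale (left) and the deposited scale (right); n is the number of member probes in a class. The grey line climbs with brightness on the left, from 0.04 to 0.37, and stays between -0.01 and 0.04 on the right, and the red line is above it in each class, of which the 4 dimmest hold only 3 to 7 members.

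Other mitochondrial genes were read from the same fit, where 10.1% of all symbols were higher and 7.91% lower at an unadjusted p under 0.05 on the 75th-percentile scale, and 7.06% were higher on the deposited scale. Of 11 genes encoded by mitochondrial DNA, which form the cores of complexes I, III, IV and V, 10 were positive with a median of 0.47, and 7 were higher and 0 lower at an unadjusted p under 0.05. CYTB, the cytochrome b of complex III, was 0.81 ± 0.24 higher and COX2 was -0.06. On the deposited scale the list had a median of 0.30 with 4 higher. Assembly factors, which build the complexes but are not part of them, had a median of 0.36 with 10 of 45 higher and 0 lower, among them Cox17, a copper chaperone, at 0.50 ± 0.16 and Ecsit, of complex I assembly, at 0.57 ± 0.22. On the deposited scale their median was 0.25 with 4 higher, 8.89%, near the share of all symbols. Genes of coenzyme Q synthesis, which make the electron carrier between complexes, were 12 of 12 positive on both scales, with medians of 0.49 and 0.38. A mixed list of 13 tested genes held carriers and channels such as Cycs (cytochrome c) and Slc25a4 (the adenine nucleotide exchanger), but also the ATPase inhibitor Atpif1, the creatine kinase Ckmt2, and Ndufab1 and Usmg5, subunits of complexes I and V whose symbols fall outside the rule for members. It had a median of 0.45 with 7 of 13 higher, Ckmt2, Ndufab1 and Usmg5 among them, and 0.10 with 0 higher on the deposited scale.

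Beyond the respiratory chain, 74 of 74 mitochondrial ribosome genes were positive, with a median of 0.42 and 27 higher, and on the deposited scale 73 were, with a median of 0.27 and 11 higher. The tricarboxylic acid cycle had a median of 0.45 with 3 of 12 higher, including Idh3a at 0.59 and Idh3b at 0.71, subunits of isocitrate dehydrogenase. On the deposited scale its median was 0.19 with 3 higher. The cytosolic ribosome offers another list of bright probes, with a median level of 7.15 against 7.67 for the subunit genes. On the 75th-percentile scale 76 of its 79 tested genes were positive, 96.2%, as were all 83 subunit genes and 59.2% of all symbols. Its median there was 0.23 with 6 higher, 7.59%. On the deposited scale its median was -0.06 with 0 higher and 16 positive, where 76 of 83 subunit genes were positive.

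Of 16 regulators known to act on these genes, 12 were positive on each scale, with medians of 0.24 and 0.17. Against the shares of all symbols given above, 1 was higher (Tfb2m, a mitochondrial transcription factor, by 0.35) and 1 lower (Nrip1, a corepressor, by -0.66) at an unadjusted p under 0.05. Ppargc1a, the coactivator of mitochondrial biogenesis, differed by 0.28 (limma, Benjamini-Hochberg adjusted p = 0.497), Esrra by 0.35, Nrf1 by -0.16, Gabpa by 0.16 and Tfam by 0.09.

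**Figure D5:**
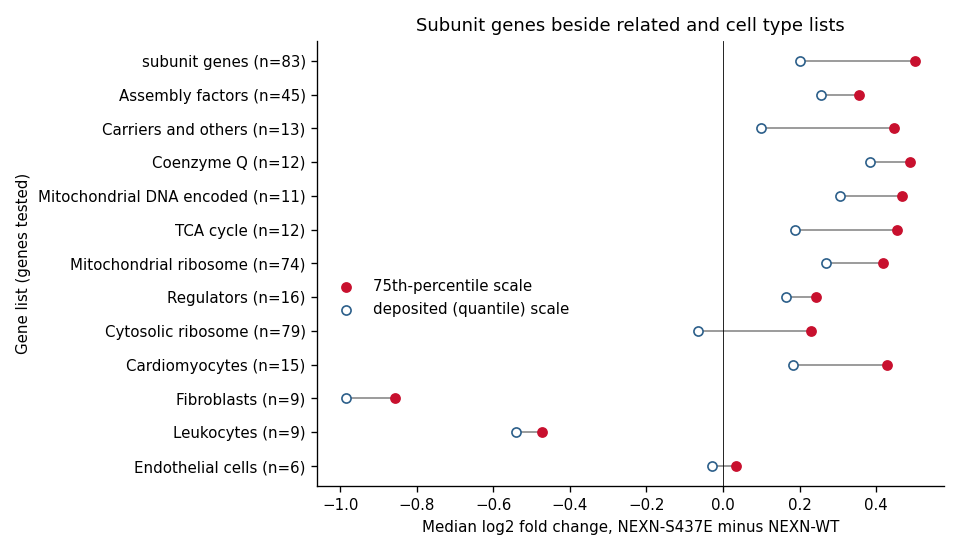
Median log2 fold change, NEXN-S437E minus NEXN-WT, of the subunit genes and of other gene lists (vertical axis, with the number of genes tested), on the 75th-percentile scale (filled red) and the deposited scale (open blue). The subunit genes lie at 0.50 and 0.20, all mitochondrial lists are above 0 on both scales, the cytosolic ribosome falls on both sides of 0, and fibroblast markers lie at -0.86 and -0.99.

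Cell type markers differed between the groups as well. Their counts stand against 10.1% of all symbols higher and 7.91% lower at an unadjusted p under 0.05, or 7.06% and 9.6% on the deposited scale. Cardiomyocyte markers were 15 of 15 positive with a median of 0.43 and 7 at an unadjusted p under 0.05, and on the deposited scale 12 were positive with a median of 0.18 and 0 at that p. Fibroblast and matrix markers were all lower, 9 of 9, with a median of -0.86 and 7 at an unadjusted p under 0.05, and their summed level was 634 to 1024 in NEXN-WT and 452 to 487 in NEXN-S437E. The highest sum, 1024, was that of NEXN-WT 1, the array in which most subunits were lowest. Of 3 tested atrial cardiomyocyte markers, 2 were lower at an unadjusted p under 0.05 on each scale and the third, Stard10, was 0.69 ± 0.34 higher without overlap but not at that p. The summed level of the 3 was 385 to 442 in NEXN-WT and 141 to 193 in NEXN-S437E. Their median level was only 1.53 in log2, so the sum follows the brightest, Nppa, and does not measure atrial cells. Nppa, the atrial natriuretic peptide, fell by 1.39 ± 0.17 on the log2 scale (limma, Benjamini-Hochberg adjusted p = 0.0254). The paper treats it as a hypertrophy marker and found by qPCR that NEXN-S437E reversed its rise with the deletion. The other 2 of the 5 atrial markers, Myl7 and Sln, were too dim to be tested. The single marker genes in this paragraph were named after their values were seen. Erythrocyte markers had a median of 0.36 with 0 of 3 at an unadjusted p under 0.05, and their summed level was 323 in NEXN-S437E 1 and 29.0 to 112 in the other 5 samples. Leukocyte markers had a median of -0.47 with 4 of 9 positive and 3 lower at an unadjusted p under 0.05, 2 on the deposited scale, and 3 of 12 were too dim to be tested. Of them Cd3d and Cd3g, chains of the T cell receptor complex, passed the adjusted threshold on both scales. Cd3d differed by -2.49 ± 0.28 on its brightest probe (limma, Benjamini-Hochberg adjusted p = 0.0221). A dimmer Cd3d probe (A_51_P285206) stayed within background in all NEXN-S437E samples. By the bound described next for Cd3g it was at least 4.59-fold lower (limma, Benjamini-Hochberg adjusted p = 0.00112). Cd3g stayed within background in all NEXN-S437E samples by the scanner's flag, so only a bound is given, at least 2.18-fold lower with NEXN-S437E (limma adjusted p = 0.00112), taking for each dim array the higher of its lowest signal well above background and the probe's own. Endothelial markers had a median of 0.03, 0 of the 6 at an unadjusted p under 0.05. Ucp1 and Adipoq, which define brown and white fat, were too dim to be tested, while Cidea, the other brown fat marker, differed by 0.29 ± 0.22 and Lep, the 1 white fat marker tested, by 0.36 ± 0.18. Of 9 skeletal muscle markers 4 were too dim to be tested. The 5 tested skeletal muscle markers had a median of 0.42 with 1 higher and 1 lower at an unadjusted p under 0.05, namely Myh4, a fast myosin heavy chain, at 0.82 ± 0.18, and Tnnt3, a fast troponin T, likewise within background in all NEXN-S437E samples, at least 1.64-fold lower (limma adjusted p = 0.231). The summed level of the subunit genes was 12404 to 19530 in NEXN-WT and 23219 to 23402 in NEXN-S437E. In such bulk tissue, fewer cells of a type and less RNA per cell cannot be told apart, and the part of cell composition in the subunit differences was not tested.

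Since the subunits moved together, their promoters were searched for motifs of factors known to act on respiratory genes. RefSeq sequences (GRCm38.p6) from 250 bases before to 50 after the transcription start were matched for 68 of the 85 genes by gene identifier, and both strands were read. NRF1 (CGCATGCG) was found in 9 of 68 genes, 13.2%, against 2.07% of 27025 genes, and YY1 (AAGATGGCG) in 8, 11.8%, against 1.64%. ERR (TCAAGGTCA) was found in 2, 2.94%, against 0.466%, and an ETS motif (CCGGAAGT) in 5, 7.35%, against 4.31%. SP1 (GGGCGGGG) was found in 19.1% of the subunit genes and in 19.6% of all. A match to TATAAA anywhere in these windows, on either strand and not only where a TATA box lies, was found in 10.3% and 15.7%. The 49 matches included 0 in which different motifs overlapped.

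The fold changes of genes with and without a match are given as medians, with no test. The genes with NRF1 had a median log2 fold change of 0.42 and those without it 0.51, and on the deposited scale 0.13 and 0.20. When 1 more base was asked for on each side of the NRF1 motif, 5 genes were left, with a median of 0.53 against 0.50, and on the deposited scale 0.15 against 0.19. For YY1 the medians were 0.55 with and 0.50 without, and 0.21 and 0.17 on the deposited scale, and with 1 more base at the end of that motif, which left 6 genes, 0.62 against 0.50 and 0.23 against 0.17.

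Of the 8 genes with YY1, 7 had a match beginning 22 to 35 bases after the start and 2 had one before it, whereas NRF1 lay before the start in 8 of its 9 genes. The windows below hold examples of matches upstream of the start site, with the motif in capitals. NRF1 begins 41 bases before the start in Atp5g2 (chr15:102671056-102671113, minus strand), 49 in Atp5k (chr5:108434416-108434473, minus strand), 161 in Cox6a1 (chr5:115349087-115349144, minus strand) and 59 in Ndufa11 (chr17:56717678-56717735, plus strand). YY1, in one of its less common upstream places, begins 88 bases before the start in Atp5j (chr16:84835031-84835089, minus strand), and ERR, on the opposite strand, 52 before that of Atp5g3 (chr2:73911345-73911403, minus strand). The Cox6a1 window belongs to a subunit with a difference of 0.23, and Ndufa11, with the same motif, differed by 0.61.
Atp5g2: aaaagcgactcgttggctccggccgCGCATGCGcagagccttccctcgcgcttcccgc
Atp5k: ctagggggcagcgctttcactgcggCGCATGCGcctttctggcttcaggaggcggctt
Cox6a1: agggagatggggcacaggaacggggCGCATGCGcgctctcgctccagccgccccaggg
Ndufa11: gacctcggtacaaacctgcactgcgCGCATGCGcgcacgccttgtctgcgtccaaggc
Atp5j: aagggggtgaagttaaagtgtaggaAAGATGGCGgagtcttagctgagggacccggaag
Atp5g3: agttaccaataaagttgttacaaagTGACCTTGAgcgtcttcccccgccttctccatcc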

How the data were processed

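Total RNA was labelled with cyanine-3 and hybridised to 1-colour Agilent SurePrint G3 mouse arrays. Per the labels, spots were read with Agilent Feature Extraction 10.7.1.1, and the deposited intensity used here is its background-corrected processed signal. The authors also deposited a table of log2 values, whose sorted columns were identical, as quantile normalisation makes them. From the intensity of each spot, log2 was taken and the 75th percentile over the non-control spots of the array subtracted; outlier spots were dropped and spots of a probe averaged. Probes that the scanner flagged as clearly brighter than background in every sample of either virus group were fitted on all 6 arrays with limma 3.58.1 in R 4.3.3, with no covariate, and p-values were adjusted over 22998 probes by Benjamini-Hochberg. Promoters, isoform differences and counts used Python 3.11.15 and scipy 1.17.1. The code was tested on simulated data. The number of arrays limits the precision.

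Gene values came from a gene's brightest tested probe. Genes were named, except 1 not reported here, if they were core subunits, isoforms of a set, one of the 3 largest or smallest changes of a complex, not tested, or past a threshold; others, named for a motif, the slide row, a shift between scales, or probes that disagreed, were dim or shared sequence, were chosen after their values were seen. The members and lists were chosen with earlier results of these data known. Same-numbered samples did not deviate together (r = -0.15, -0.03 and -0.18), so numbers were not treated as pairs. Alternatives were other scalings, background corrections, filters, tests and variance models, blocks for number or slide row, and leaving out each array. Coordinates of probes are those of the files (mm9). The deleted and the transferred gene were not analysed here.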

Additional observations from a re-analysis of the deposited data

How the results depend on the processing

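Across the 56 genes of the naming rule and 19 alternatives, 1018 of 1064 checks kept direction and side of the adjusted threshold, 29 newly passed it (all but 1 with array weights), and 17 changed sign. Against 68 of 116 members at an unadjusted p under 0.05, quantile normalisation and the deposited values each gave 13, no filter on dim probes 40 of 131 and the methods' t-test 35. Of all probes, 17.2% in the analysis as reported and 15.8%, 15.8%, 13.0% and 13.7% in these fits were at that p in either direction. No such count is given with slide row as a block, where the virus effect rests on NEXN-S437E 1 alone. The fit with the replicate number as a block (replicate block) gave 56, with 0 past the adjusted threshold. In that fit 14.2% of all probes were at an unadjusted p under 0.05 in either direction, and 0.161% were past the adjusted threshold. Leaving out 1 array gave 22 (NEXN-S437E 3) to 83 (NEXN-WT 3), all higher. In these fits 5.80% and 13.8% of all probes were higher at an unadjusted p under 0.05. The median log2 fold change of 0.49 was 0.21 with quantile normalisation, 0.21 with the deposited values, 0.43 with slide row as a block and 0.31 to 0.62 without 1 array. Members past an adjusted p of 0.05 numbered 62 of 116 with array weights, which gave the lowest weight to NEXN-WT 1 and put 16.6% of all probes past it. Without 1 array they numbered 0 to 1, where 0.0522% to 0.557% of all probes were past it. Members at 2-fold numbered 1 with array weights, 1 without the filter and 0 to 1 without 1 array. Of all probes, 2.23%, 4.01% and 1.57% to 3.91% were at 2-fold in these fits. Chosen after seeing the data, quantile normalisation without NEXN-WT 1 gave 7 at an unadjusted p, 1 past the adjusted threshold, 1 at 2-fold and a median of 0.11, and with the row block 8 (2 higher, 6 lower) and a median of 0.10, where 12.8% and 10.3% of all probes were at an unadjusted p under 0.05 in either direction.

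With quantile normalisation the sign changed for Cox6a1 (-0.14), Cox7a2l (-0.059), Cox8a (-0.079), Cox8b (-0.022), Ndufa2 (-0.032) and Ndufb11 (-0.095), and with the deposited values for the same genes, at -0.13, -0.057, -0.077, -0.016, -0.030 and -0.094. Slide row as a block gave negative values for Atp5j2 (-0.24), Ndufa2 (-0.16), Ndufa8 (-0.091) and Ndufb11 (-0.48), and for Ndufa8 leaving out 1 array gave -0.036 (without NEXN-S437E 2) to 0.39 (without NEXN-S437E 1). The cause was not tested. The 15 member probes too dim to test give no bound.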

Other observations

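Of the 15 member probes that were not tested, 12 were not well above background on any array. The others were dim probes of Sdha (3 arrays), Ndufs1 (2 arrays) and Ndufa10 (1 array), and other probes of those genes were tested.

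Another Atp5g1 probe (A_55_P2001683) shared at least 20 bases in a row with 4 probes of other symbols or of none and, on the opposite strand, with 5 more. Probes of Atp5b, Cox6a1, Cox6c and Ndufb11 and 2 probes of Atp5h each shared such a run with 1 other probe, and a Uqcr10 probe shared one on the opposite strand with 1 probe.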
